A study of Caenorhabditis elegans with 2 samples.

Results

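FOS-1 peaks that lie between a pair of divergently arranged gene starts were examined by chromatin immunoprecipitation and sequencing (ChIP-seq) in L2 larvae of Caenorhabditis elegans, a nematode, taken whole. A peak was counted as divergent when its summit lay 0 to 1000 bp upstream of a protein-coding transcript start on the plus strand and also 0 to 1000 bp upstream of one on the minus strand, in the Ensembl gene models of WBcel235 (the assembly called ce11). Of the 7446 peaks that passed the authors' irreproducible discovery rate (IDR) threshold, which measures how well replicates agree in rank, 767 met this rule (10.3%). Another 3245 peaks (43.6%) lay upstream of starts on 1 strand only and are called 1-strand peaks, and 3434 (46.1%) lay upstream of no protein-coding start. The rule used only positions, so signal, replicate support, chromosome and sequence were compared between divergent and 1-strand peaks.

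Both biological replicates are of 1 group, mixed-sex L2 larvae of strain OP304 (unc-119(ed3) III; wgIs304), which carries an integrated eGFP-fos-1 transgene. The antibody is labelled fos-1 and the experiment is described as against eGFP-fos-1, so it cannot be told from the labels whether endogenous FOS-1 was precipitated as well. No sample without the transgene is in the group, so there is no contrast of conditions. The labels list no mutation of the endogenous fos-1 gene, a whole animal pools all its tissues, and a peak does not tell in which cells it was bound.

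FOS-1 is the worm Fos protein, one of the transcription factors with a basic leucine zipper (bZIP), and Fos proteins are known to bind the AP-1 site as dimers with partners such as Jun. In the compact genome of the worm, neighbouring genes often stand head to head, so that the short stretch between their starts can serve as the promoter of both. Many annotated starts in C. elegans are sites of trans-splicing and not of transcription initiation, because the leader sequence added to most mRNAs replaces the original end. A peak between such genes cannot be assigned to either of them by position.

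Sequences of 101 bases centred on the summit are shown for the divergent peak of highest signal that holds each of the sequence patterns searched, with sequences of 1 chromosome not printed, since the comparison with 1-strand peaks turns on these patterns. Each is the ce11 reference read 5′ to 3′ on the plus strand, named by the gene of the nearest minus-strand start and that of the nearest plus-strand start, with the pattern in capitals. The AP-1 site stood at chrIII:10742606-10742706, the GATA site at chrII:12768405-12768505, the GAGAGAG repeat at chrIII:10759206-10759306, GACGCAGA at chrIII:13643688-13643788, the E-box together with GACGCAGA at chrIV:8432919-8433019 and the CRE site at chrX:14983443-14983543.
tbb-1 and rib-2, AP-1: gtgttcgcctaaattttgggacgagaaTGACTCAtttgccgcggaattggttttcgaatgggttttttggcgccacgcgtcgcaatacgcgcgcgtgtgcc
vps-2 and tiar-2, GATA: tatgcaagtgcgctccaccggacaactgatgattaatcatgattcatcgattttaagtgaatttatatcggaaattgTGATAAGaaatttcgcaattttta
K01G5.10 and tasp-1, GAGAGAG: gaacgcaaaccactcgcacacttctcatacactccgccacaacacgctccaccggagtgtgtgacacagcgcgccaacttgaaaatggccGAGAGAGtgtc
drr-2 and set-16, GACGCAGA: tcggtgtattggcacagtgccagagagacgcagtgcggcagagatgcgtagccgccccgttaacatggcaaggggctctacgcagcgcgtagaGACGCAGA
T26A8.4 and pdtf-1, E-box and GACGCAGA: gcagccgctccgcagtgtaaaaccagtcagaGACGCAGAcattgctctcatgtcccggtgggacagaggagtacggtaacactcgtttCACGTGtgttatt
plp-2 and rbg-1, CRE: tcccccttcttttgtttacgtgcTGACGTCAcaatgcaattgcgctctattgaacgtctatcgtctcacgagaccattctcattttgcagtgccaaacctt

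The next windows were chosen after the values were seen. The window between rpl-15 and K11H12.8, at chrIV:654880-654980, belongs to the strongest divergent peak beside a ribosomal protein gene, and it held none of the patterns. The windows between eef-1A.1 and rfc-4, at chrIII:6972050-6972150, and between trap-2 and ile-2, at chrX:768229-768329, hold the 7-base word with the highest ratio of summit to flank among divergent peaks, shown in capitals on either strand.
rpl-15 and K11H12.8: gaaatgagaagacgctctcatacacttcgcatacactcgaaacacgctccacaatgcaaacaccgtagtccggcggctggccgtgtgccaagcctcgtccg
eef-1A.1 and rfc-4: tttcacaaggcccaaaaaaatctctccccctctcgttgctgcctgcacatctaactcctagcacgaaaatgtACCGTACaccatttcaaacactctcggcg
trap-2 and ile-2: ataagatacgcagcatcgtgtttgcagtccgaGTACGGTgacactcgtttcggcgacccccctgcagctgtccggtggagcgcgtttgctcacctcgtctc

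The 12 divergent peaks of highest signal are described first, with the genes on either side. The signal value, on the authors' own scale and not normalized between lists, was 427 in the pooled list for the peak between tbb-1, which encodes a beta-tubulin, and rib-2, a glycosyltransferase gene needed to make heparan sulfate. In the replicates taken alone this site had a signal of 285 in replicate 1 and 145 in replicate 2. Its rank was 6 among all IDR peaks, 9 in replicate 1 and 5 in replicate 2, so both replicates put it near the top. The summit lay 224 bp from the start of tbb-1 and 154 bp from that of rib-2.

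The peak between vps-2, which encodes a subunit of the membrane-remodelling complex ESCRT-III, and tiar-2, which encodes an RNA-binding protein of the TIA family, had a signal of 407, with 302 in replicate 1 and 115 in replicate 2. The peak between K01G5.10 and tasp-1, the gene of a threonine aspartase, had 375, with 248 in replicate 1 and 129 in replicate 2. The peak between nhl-2, which encodes a cofactor of the microRNA machinery, and tag-340 had 354, with 241 in replicate 1 and 114 in replicate 2. Each of these sites was among the 20 strongest calls of both replicates. The site between rpl-15, a gene of the large ribosomal subunit, and K11H12.8 had 354, with 205 in replicate 1 and 153 in replicate 2. Its rank was 30 in replicate 1 and 3 in replicate 2. Among divergent peaks, no signal in replicate 2 was higher than this one.

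The remaining peaks of the 12 with the highest signal had values from 253 to 307. They lay between rpl-20 and Y17G9B.5, iff-2 (the translation factor eIF5A) and F54C9.14, txbp-3 and C45G9.5, ifet-1 (a binding partner of the cap-binding protein eIF4E) and rps-1 (a gene of the small ribosomal subunit), mog-1 (a helicase known for germline sex determination) and alx-1 (the ALIX homologue), sqv-3 (a glycosaminoglycan galactosyltransferase) and vha-1 (a subunit of the vacuolar proton pump), and cap-1 (an actin-capping protein) and D2024.4. Of these 12 sites, 7 were on chromosome III, 2 on chromosome II and 3 on chromosome IV. In 11 of the 12 no other protein-coding start lay between the pair, the exception being the peak between txbp-3 and C45G9.5, whose summit was also inside a gene body. The distance between the starts ranged from 378 to 1423 bp.

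**Figure D1:**
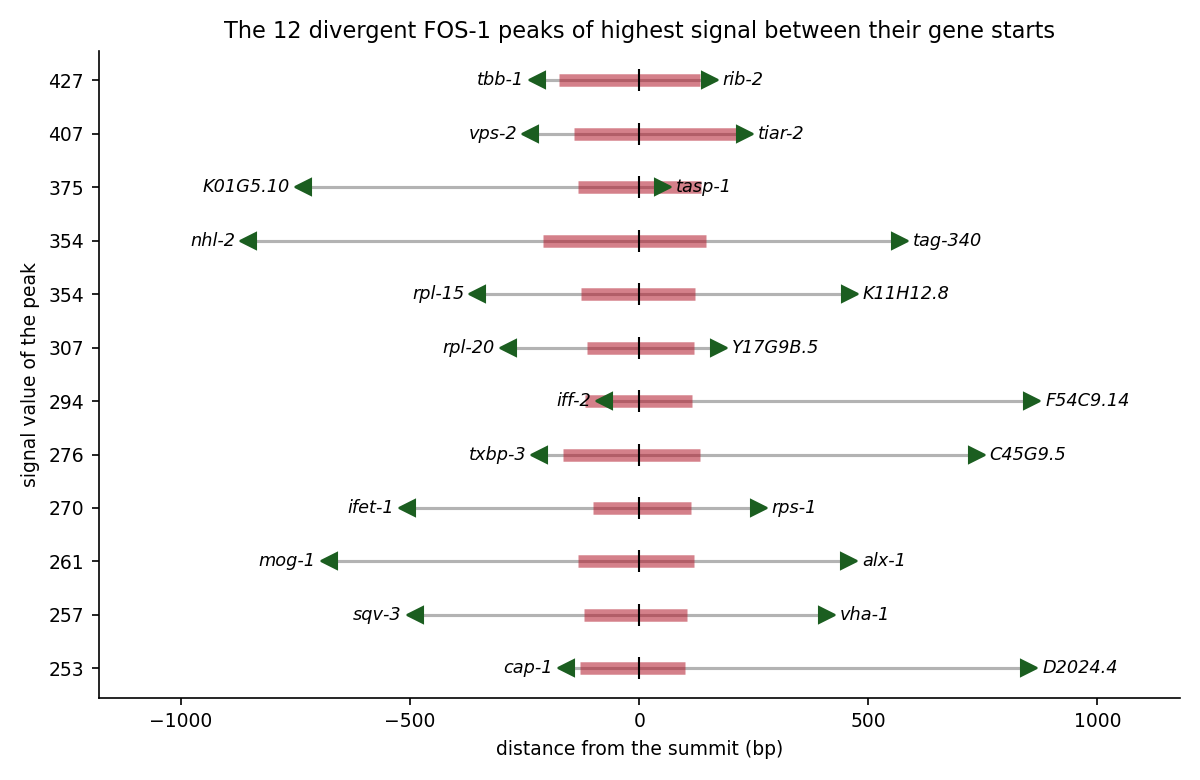
Map of the 12 divergent peaks of highest signal, one per row, with the distance from the summit in bp on the horizontal axis and the pooled signal value of each peak on the vertical axis. Red bars are peaks, black ticks are summits, and arrowheads are the nearest start on the minus strand (left) and on the plus strand (right), with the gene's name beside each; the starts of tbb-1 and rib-2 lie 378 bp apart and those of nhl-2 and tag-340 lie 1423 bp apart.

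FOS-1 summits were denser between divergent starts than upstream of starts on 1 strand. The 767 divergent peaks lay in 1722088 bases that meet the divergent rule, a density of 445 summits per Mb, against 157 per Mb in the 20691848 bases upstream of starts on 1 strand, a ratio of 2.84. Divergent bases were 7.68% of all upstream bases and held 19.1% of all upstream summits (95% Wilson interval 17.9 to 20.4; exact binomial test, p = 2.47e-119). The interval and the p-value treat peaks as independent and cover counting error only, since all peaks come from the same pair of replicates. A divergent base lies upstream of starts on both strands and a 1-strand base of starts on 1 only. The part of this in the ratio was not tested. When only summits and bases outside gene bodies were counted, the ratio was 2.40.

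Because divergent bases lie closer to a start, the density was also compared within bins of the distance to the nearest upstream start. Within 0 to 99 bp it was 659 summits per Mb in divergent bases and 306 in 1-strand bases. The density at 100 to 249 bp was 658 against 316 per Mb, and at 250 to 499 bp it was 282 against 147 per Mb. In these bins the ratios were 2.15, 2.08 and 1.92, and each difference passed the exact binomial test after Benjamini-Hochberg adjustment over 4 bins (adjusted p = 2.39e-23, 8.88e-26 and 9.07e-11). At 500 to 1000 bp, with 37 divergent and 803 1-strand summits, the ratio was 1.42 and did not pass (exact binomial test, adjusted p = 0.0567).

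Calls of low rank did not share this distribution. Among the 20145 pooled calls that overlapped no IDR peak, called low-ranked calls here, 559 were divergent and 5421 were upstream on 1 strand, with 325 summits per Mb in divergent and 262 in 1-strand bases, a ratio of 1.24. The divergent share of upstream summits was 19.1% for IDR peaks (767 of 4012) and 9.35% for low-ranked calls (559 of 5980), an odds ratio of 2.29 (Fisher's exact test, two-sided, p = 3.51e-44). Within the bins of distance, the ratio for low-ranked calls was 1.01, 1.22, 0.890 and 0.689. Openness of chromatin and mappability of these bases were not measured here, and their part in the densities was not tested. By definition low-ranked calls cannot overlap IDR peaks, yet the bases under IDR peaks were left in the densities. This lowers the density of low-ranked calls more where IDR peaks are denser, by an amount that was not measured.

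**Figure D2:**
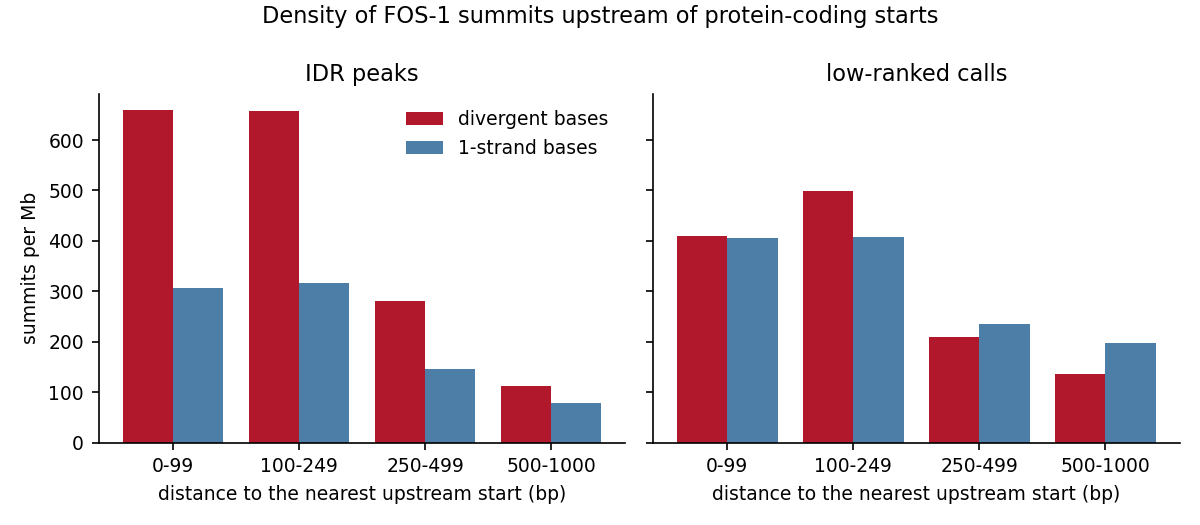
Density of summits, in summits per Mb, by distance in bp from the summit to the nearest upstream protein-coding start, for IDR peaks (left) and low-ranked calls (right). Red bars are divergent bases and blue bars are 1-strand bases; for IDR peaks the red bars are 2.15, 2.08, 1.92 and 1.42 times the blue ones from the nearest bin to the farthest.

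A smaller share of divergent than of 1-strand peaks was on chromosome X, and the same held for the bases of each class. Of the 767 divergent peaks, 39 were on X (5.08%, 95% Wilson interval 3.74 to 6.88), against 664 of 3245 1-strand peaks (20.5%, interval 19.1 to 21.9), an odds ratio of 0.208 (Fisher's exact test, p adjusted over 4 features = 1.56e-28). Of the bases that meet the divergent rule X held 5.76%, close to its share of divergent peaks, and of 1-strand bases it held 15.3%. The test takes no account of these bases. Within X the density was 393 summits per Mb in divergent bases and 209 in 1-strand bases, a ratio of 1.88.

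On each of the autosomes the ratio of densities was higher than on X. It was 3.70 on chromosome III, with 623 summits per Mb in divergent and 169 in 1-strand bases. The ratio was 3.19 on chromosome I (469 against 147 per Mb), 2.92 on IV (404 against 138), 2.82 on II (448 against 159) and 2.72 on V (366 against 135). Chromosome III held 163 divergent peaks (21.3% of them) and 13.6% of 1-strand peaks. The difference in ratio between chromosomes was not tested.

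Of the gaps up to 2000 bp that run from a minus-strand start to the next plus-strand start with no protein-coding start between them, 877 of 2712 held an IDR summit (32.3%, 95% Wilson interval 30.6 to 34.1). The share was 17.9% (73 of 407) for gaps up to 250 bp and 39.8% (227 of 570) for gaps of 251 to 500 bp. Longer gaps held a summit in 33.2% (501 to 1000 bp), 33.3% (1001 to 1500 bp) and 33.3% (1501 to 2000 bp) of cases, while the number of summits per kb of gap was 1.11, 1.09, 0.477, 0.309 and 0.238 from the shortest to the longest gaps. Of the 767 divergent peaks, 706 lay in such a gap and 61 had a further start between the pair. The 767 peaks stood between 743 distinct pairs of genes, and 17 gaps held 2 of them.

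Between the starts the summits were about equally often on either side, which is a description, since the rule used these positions. The distance between the nearest starts had a median of 579 bp and a range of 49 to 1899 bp. When this distance was divided into 3 equal parts, 312 summits (40.7%) were in the middle part, 227 (29.6%) in the part next to the minus-strand start and 228 (29.7%) in that next to the plus-strand start. The nearer start was the plus-strand one for 391 peaks and the minus-strand one for 373, and 3 summits were equally far from both. Both starts were within 250 bp for 192 peaks and within 500 bp for 459. The 61 peaks whose farther start was at 901 to 1000 bp had a median signal of 78.6, and the 63 peaks that missed the rule by up to 100 bp had a median of 66.1.

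Most divergent summits were outside genes. Of the divergent summits 669 (87.2%) were outside every protein-coding gene body, 94 were inside a gene but not in coding sequence and 4 were in coding sequence, against 2362 (72.8%), 833 and 50 of the 1-strand summits.

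Signal values of divergent peaks lay close to those of 1-strand peaks. The pooled signal had a median of 65.3 in divergent peaks (quartiles 47.7 and 98.7, highest 427) and of 66.4 in 1-strand peaks (quartiles 47.6 and 97.4, highest 702). In replicate 1 the median was 45.1 in divergent and 46.5 in 1-strand peaks, and in replicate 2 it was 21.5 in divergent and 21.3 in 1-strand peaks. The share of peaks in the fifth of all IDR peaks with the highest signal was 21.3% (163 of 767, 95% Wilson interval 18.5 to 24.3) for divergent and 20.9% (679 of 3245, interval 19.6 to 22.4) for 1-strand peaks, an odds ratio of 1.02 that did not pass Fisher's exact test (p = 0.844).

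Replicate support was also close. A divergent peak overlapped a call of the relaxed list in replicate 1 in 764 cases and in replicate 2 in 759 cases. When only the 7446 strongest calls of each replicate were counted, 629 divergent peaks (82.0%, interval 79.1 to 84.6) were in both, against 2616 1-strand peaks (80.6%, interval 79.2 to 81.9; odds ratio 1.10, Fisher's exact test, adjusted p = 0.552). Of the other divergent peaks, 87 were among the strongest calls of replicate 1 only, 44 of replicate 2 only and 7 of neither. All 163 divergent peaks among the 1490 IDR peaks of highest signal were supported by both replicates in this sense. Of the 139 divergent peaks among the 1489 IDR peaks of lowest signal, 41 were. The IDR list held the 7446 pooled calls of highest signal, so its weakest peaks lie near the cut used for each replicate. This difference by signal is therefore partly built in and is only described.

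Short structural RNA genes (tRNA, snoRNA, snRNA or rRNA) lay within 250 bp of 16 divergent summits (2.09%, interval 1.29 to 3.36) and of 102 1-strand summits (3.14%, interval 2.60 to 3.80; odds ratio 0.656, Fisher's exact test, adjusted p = 0.306). For divergent peaks these were 6 near a tRNA gene, 6 near a snoRNA gene and 4 near a snRNA gene, against 57, 31 and 14 for 1-strand peaks.

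**Figure D3:**
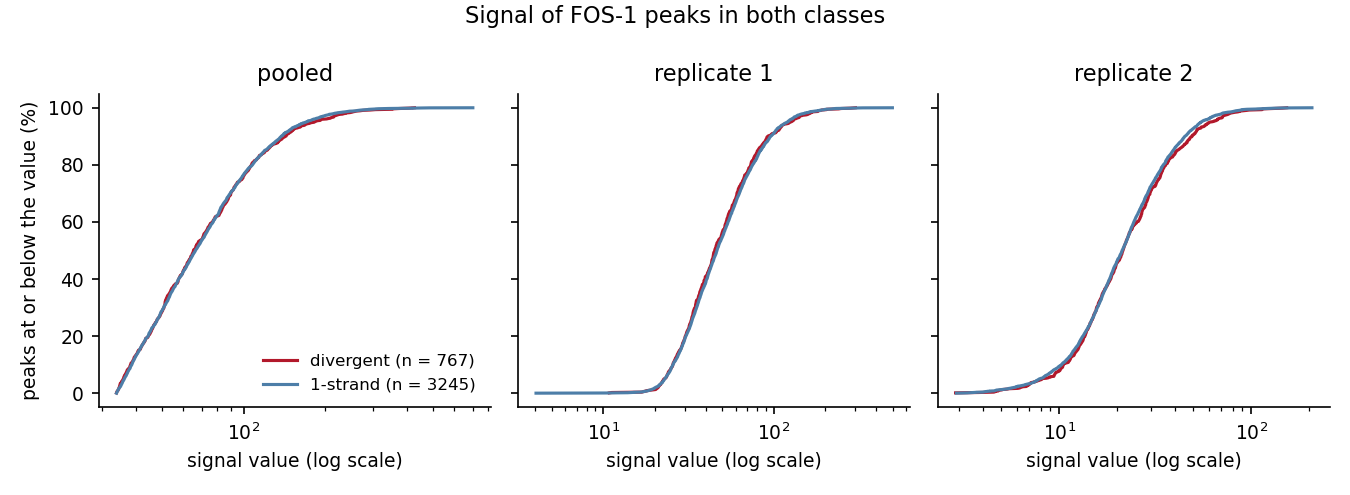
Cumulative share of peaks (vertical axis, %) at or below each signal value (horizontal axis, log scale) in the pooled list, replicate 1 and replicate 2. Red lines are divergent and blue lines 1-strand peaks; the lines lie close together, with pooled medians of 65.3 for divergent and 66.4 for 1-strand peaks.

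The sequence at the summit differed between the classes, and the widest difference in share among the 7 patterns searched was in GATA sites, the sequences known to be bound by GATA factors such as those that drive intestinal genes in the worm. Patterns were searched on both strands and counted when they lay whole within 50 bp of the summit. A GATA site (AGATAA, or with a last G AGATAG, or with a first T TGATAA, or with both TGATAG) was present at 220 of 767 divergent summits (28.7%, 95% Wilson interval 25.6 to 31.98) and at 1754 of 3245 1-strand summits (54.1%, interval 52.3 to 55.8), an odds ratio of 0.342 (Fisher's exact test, p adjusted over 7 patterns = 1.18e-36). Of all tiles of 101 bp upstream of starts, 21.5% of divergent and 21.2% of 1-strand tiles held such a site, and in windows 300 bp to either side the share was 21.8% for divergent and 21.0% for 1-strand summits. The share at divergent summits stood above these backgrounds by less than the share at 1-strand summits did. The median GC content of the windows was 43.6% in divergent and 40.6% in 1-strand peaks, and its part in the difference was not tested.

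The extended site TGATAAG, each of whose matches is also a GATA match, was at 96 divergent summits (12.5%, interval 10.4 to 15.05) and at 748 1-strand summits (23.1%, interval 21.6 to 24.5; odds ratio 0.478, Fisher's exact test, adjusted p = 7.88e-11). Its share of tiles was 2.43% in divergent and 2.14% in 1-strand bases. This word and GACGCAGA had been taken from a ranking of words over all peaks of these data, most of which are not divergent. The extended site was in 12.5% of divergent IDR peaks and 6.98% of the 559 divergent low-ranked calls (odds ratio 1.91). That ranking took in the divergent IDR peaks themselves, so this comparison cannot test the word and is only described. For the GATA site the shares were 28.7% of divergent IDR peaks and 24.7% of divergent low-ranked calls (odds ratio 1.23, Fisher's exact test, adjusted p = 0.274).

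The share of GATA sites was lower at divergent than at 1-strand summits in each split below that was made for both classes. The split by distance between the starts exists for divergent summits only. Of these splits only the autosomes were tested on their own. In the bin of 0 to 99 bp it was 37.1% for divergent and 65.2% for 1-strand summits. The shares were 22.0% against 48.2% at 100 to 249 bp, 21.4% against 47.6% at 250 to 499 bp, and 51.4% (19 of 37) against 58.0% at 500 to 1000 bp. On autosomes the share was 28.8% against 54.4% (odds ratio 0.340, Fisher's exact test, adjusted p = 5.88e-34), and on X it was 25.6% (10 of 39) against 52.9%. In the fifth of highest signal it was 32.5% against 58.3%, and in the fifth of lowest signal 23.7% against 46.7%. By the distance between the starts, 28.8% of divergent summits in gaps up to 250 bp, 20.3% in gaps of 251 to 500 bp, 31.4% in gaps of 501 to 1000 bp and 37.3% in gaps of 1001 to 2000 bp held a GATA site.

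AP-1 sites were rare in both classes. TGACTCA or TGAGTCA, each the reverse complement of the other, was at 19 divergent summits (2.48%, interval 1.59 to 3.84) and at 120 1-strand summits (3.70%, interval 3.10 to 4.40), an odds ratio of 0.661 that did not pass Fisher's exact test (adjusted p = 0.140). The share of tiles with the site was 0.939% in divergent and 1.01% in 1-strand bases. Of the 19 divergent peaks with an AP-1 site, 9 were among the 1490 IDR peaks of highest signal. Of all 767 divergent peaks, 163 were among these 1490 (21.3%). The 1-strand peaks leaned the same way, with 45 of the 120 that held the site among the 1490, against 679 of all 3245 (20.9%). These shares were not tested. The median signal of the 19 divergent peaks was 104, against 65.2 for divergent peaks without the site. The strongest after tbb-1 and rib-2 lay between mog-1 and alx-1 (signal 261, with 168 in replicate 1 and 94.6 in replicate 2), between the innexin genes inx-15 and inx-16, which encode gap junction proteins (247, with 165 in replicate 1 and 80.2 in replicate 2), and between the chemoreceptor gene srh-166 and Y38H6C.24 (224, with 155 in replicate 1 and 71.8 in replicate 2). The pairs after mog-1 and alx-1 were picked for their site after the values were seen.

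The repeat GAGAGAG was at 48 divergent summits (6.26%, interval 4.75 to 8.20) and at 319 1-strand summits (9.83%, interval 8.85 to 10.9; odds ratio 0.612, Fisher's exact test, adjusted p = 0.00392). The share of tiles was 1.68% in divergent and 1.75% in 1-strand bases. The call was lost among the 3723 IDR peaks of highest signal (adjusted p = 0.0865) and among summits within 250 bp of the nearest start (adjusted p = 0.178, Fisher's exact test). GACGCAGA was at 38 divergent (4.95%, interval 3.63 to 6.73) and 200 1-strand summits (6.16%, interval 5.39 to 7.04; adjusted p = 0.273, Fisher's exact test), with 0.978% of divergent and 0.693% of 1-strand tiles. The E-box CACGTG was at 20 divergent (2.61%, interval 1.69 to 3.99) and 133 1-strand summits (4.10%, interval 3.47 to 4.84; adjusted p = 0.102, Fisher's exact test), with 1.92% of divergent and 1.68% of 1-strand tiles. The CRE site TGACGTCA was at 6 divergent (0.782%, interval 0.359 to 1.70) and 31 1-strand summits (0.955%, interval 0.674 to 1.35; adjusted p = 0.834, Fisher's exact test), with 0.531% of divergent and 0.549% of 1-strand tiles. None of the 7 patterns was found at 456 divergent summits (59.5%), against 1071 1-strand summits (33.0%). This was not tested and is not a separate result, since it includes the difference in GATA sites and in words ranked over all peaks. Among the 12 divergent peaks of highest signal, 8 held none.

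**Figure D4:**
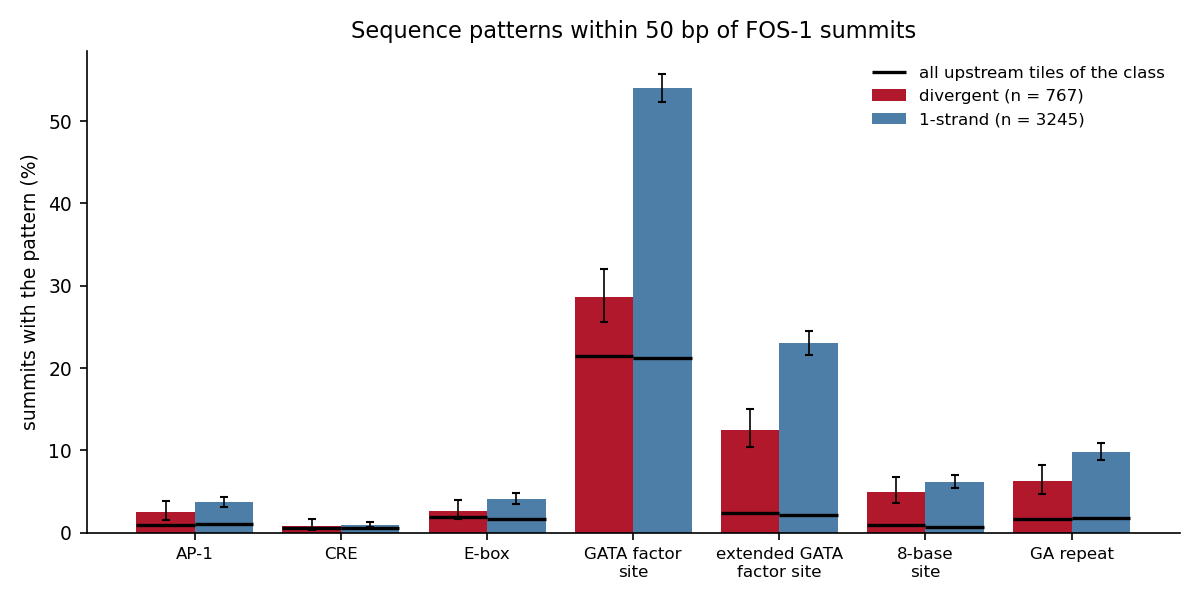
Share of summits (vertical axis, %) with each of 7 sequence patterns within 50 bp, for divergent (red) and 1-strand (blue) peaks, with 95% Wilson intervals; black lines mark the share among all upstream tiles of the class. The 8-base site is GACGCAGA and the GA repeat is GAGAGAG; the GATA factor site stands at 28.7% of divergent and 54.1% of 1-strand summits.

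Words of 7 bases were ranked by the ratio of their share at divergent summits to that in windows 300 bp to either side, as a description with no test, after 1 was added to each count of flank windows. Among the 708 words found at 20 or more divergent summits, the first was ACCGTAC, which reads on the other strand as GTACGGT and is shown in capitals in the windows of eef-1A.1, which encodes a translation elongation factor, and trap-2, which encodes a subunit of the translocon-associated complex. It was at 45 divergent summits (5.87%) and in 0.0652% of 1534 flank windows. Among 1-strand peaks it was at 24 summits (0.740%), with 0.616% of flank windows. Of the 45 divergent peaks with this word, 43 were outside gene bodies, against 669 of all 767 divergent peaks (87.2%). On autosomes were 44 of the 45, against 728 of the 767. Among the 1490 IDR peaks of highest signal were 13 of the 45, against 163 of the 767 (21.3%). None of the 45 held a GATA site, against 220 of the 767 with one (28.7%). These shares were not tested. The word lay at a median of 16 bp from the summit, and the starts around the 45 peaks were a median of 476 bp apart. The median signal of the 45 was 66.4, against 65.2 for the other divergent peaks. The signal of the peak between eef-1A.1 and rfc-4, a replication factor C gene, was 215, with 142 in replicate 1 and 73.8 in replicate 2, and that of the peak between trap-2 and ile-2 was 186, with 131 in replicate 1 and 54.9 in replicate 2. The next words were TACGCAA, at 5.08% of divergent and 1.88% of 1-strand summits, CCTCTCG, at 4.30% of divergent and 2.16% of 1-strand summits, and CCGTACC, which overlaps the first and was at 4.17% of divergent and 0.524% of 1-strand summits. TGATAAG stood at rank 66.

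By genes, 1528 of 19973 protein-coding genes (7.65%) had a divergent peak upstream, and 2948 (14.8%) had only 1-strand peaks. Of the 5365 genes with a start on a gap up to 2000 bp, 1807 had an upstream peak of either kind (33.7%), against 2669 of the 14608 other genes (18.3%). A divergent peak counts for both genes of its pair, so this difference does not show that genes on gaps are bound more often. Of the 5365 genes, 1480 (27.6%) had a divergent peak. Gene lists were described by counts beside these shares with no test, and since genes of a list differ in how often they stand head to head, the count among the genes on gaps is given for each.

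Genes of protein synthesis and folding were often beside divergent peaks. Of the 80 cytosolic ribosomal protein genes, 42 had a divergent peak (background 7.65%) and 27 only a 1-strand peak (background 14.8%). Of the 47 on gaps, 42 had a divergent peak (89.4%, against 27.6% over all genes on gaps). A divergent peak need not concern the ribosomal protein gene, and of the 36 peaks with such a gene on 1 side, 14 lay nearer to it than to its neighbour. Ribosomal protein genes were on both sides of 3 more peaks, between rps-10 and rpl-24.1 (signal 125), rpl-39 and rps-30 (92.6), and rps-14 and rpl-36 (89.6). Of 20 translation factor genes on gaps, 13 had a divergent peak, among them iff-2 (signal 294) and eef-1G, an elongation factor subunit (234). Of the 13 peaks with a translation factor gene on 1 side, 6 lay nearer to it than to its neighbour. Of all 39 translation factor genes, 11 had only a 1-strand peak (28.2%).

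Other lists of genes with functions in every cell stood above the 27.6% as well. Here too a divergent peak need not concern the listed gene. With a listed gene on 1 side, the peak lay nearer to it in 1 of 6 cases for the chaperonin CCT, 1 of 4 for the vacuolar proton pump and 2 of 7 for heat shock genes. For the others it was 10 of 14 (proteasome), 5 of 11 (splicing), 5 of 8 (synthetases), 5 of 13 (respiratory chain) and 6 of 13 (mitochondrial ribosomal proteins). Divergent peaks were beside 13 of 22 proteasome genes on gaps, with rpn-3 at a signal of 215 and rpn-6.1 at 109. They were beside 15 of 24 splicing factor genes, with rsp-1 and rsp-2 on both sides of 1 peak of signal 113. The chaperonin CCT, which folds actin and tubulin, had 6 of 8, with cct-1 at 135 and cct-8 at 116. Heat shock and chaperone genes had 9 of 15, with hsp-110 at 215 across from rpn-3 and hsp-90 at 134. Aminoacyl-tRNA synthetases had 8 of 15 (hars-1 at 127, aars-1 at 84.1), respiratory chain genes 13 of 25 (cox-6B at 232, atp-3 at 182), mitochondrial ribosomal proteins 13 of 28 (mrpl-49 at 121, mrpl-12 at 94.2) and the vacuolar proton pump 4 of 8 (vha-1 at 257, vha-8 at 210). Genes with only a 1-strand peak (14.8% over all genes) were 11 of 21 for the proton pump (52.4%) and 11 of 47 for the respiratory chain (23.4%). They were 4 of 22 for heat shock and chaperones (18.2%) and 5 of 33 for the proteasome (15.2%). Lower shares were 9 of 70 for mitochondrial ribosomal proteins (12.9%), 3 of 32 for synthetases (9.38%), 3 of 40 for splicing factors (7.50%) and 0 of 8 for CCT.

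In several large gene families the share on gaps was lower than 27.6%, in some of them by little. Chemoreceptor genes had a divergent peak in 25 of 302 cases on gaps (8.28%), cuticle collagens in 6 of 42 (14.3%; col-38 at a signal of 107 and col-69 at 63.6), C-type lectins in 14 of 81 (17.3%; clec-41 at 176, clec-62 at 148) and neuropeptide genes in 3 of 16 (18.8%; ins-7 at 81.3, nlp-31 at 51.9). Histone genes, many of which are arranged in divergent pairs, had one in 12 of 64 (18.8%), with his-67 and his-68 on both sides of a peak of signal 71.8. Closest to the background were F-box genes with 24 of 98 (24.5%; fbxa-108 at 158, fbxa-138 at 123), nuclear hormone receptors with 11 of 45 (24.4%; nhr-80 at 165, nhr-68 at 120), and glutathione transferases and UDP-glycosyltransferases with 7 of 30 (23.3%; ugt-24 at 102, ugt-12 at 93.5). The ceh homeobox genes had 3 of 10 (30.0%; ceh-38 at 152, ceh-99 at 101). The chemoreceptor genes of highest signal were srh-166 (224) and srlf-7 (223). Genes with only a 1-strand peak (14.8% over all genes) were 21 of 1364 chemoreceptors (1.54%) and 4 of 140 neuropeptide genes (2.86%). They were 4 of 80 histones and 8 of 156 collagens (5.13%). In these lists a low share was not particular to divergent peaks. The 1-strand share was 10.9% for F-box genes, 11.1% for ceh genes and 13.3% for C-type lectins. It was above 14.8% for nuclear hormone receptors (30.1%) and for glutathione transferases and UDP-glycosyltransferases (30.6%). Histone genes and the hsp-16 genes are known to exist in near-identical copies, between which short reads can be ambiguous, so the peaks there are uncertain; how reads were assigned was not tested.

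Over all genes, upstream peaks were more often of the 1-strand kind (2948 genes with only such peaks, 1528 with a divergent peak), and the counts of the remaining lists are given beside that. Of 269 nuclear hormone receptor genes, 11 had a divergent peak and 81 only a 1-strand peak. Of 25 intestine genes, elt-7, which encodes a GATA factor, was the 1 gene with a divergent peak (signal 63.8), and 15 had only a 1-strand peak; 6 of the 25 were on gaps. Of 26 bZIP genes, 3 had a divergent peak and 16 only a 1-strand peak, and of the 4 on gaps 3 had a divergent peak. The divergent ones included zip-2, known for its role in defence against bacteria (162), and zip-4 (120). The gene of the Jun protein, jun-1, had a 1-strand peak of signal 437 and no divergent peak, and fos-1 had no upstream peak of either kind. Of 21 genes of MAP kinase signalling, the JNK-type kinase gene kgb-1 (99.5) and kgb-2 (81.2) had a divergent peak, and 11 had only 1-strand peaks; 3 of the 21 were on gaps. None of the 29 bHLH genes and none of the 8 reported FOS-1 targets had a divergent peak, while 4 of the bHLH genes and 2 of the targets had only 1-strand peaks. Only 5 of the bHLH genes and none of the targets were on gaps up to 2000 bp.

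**Figure D5:**
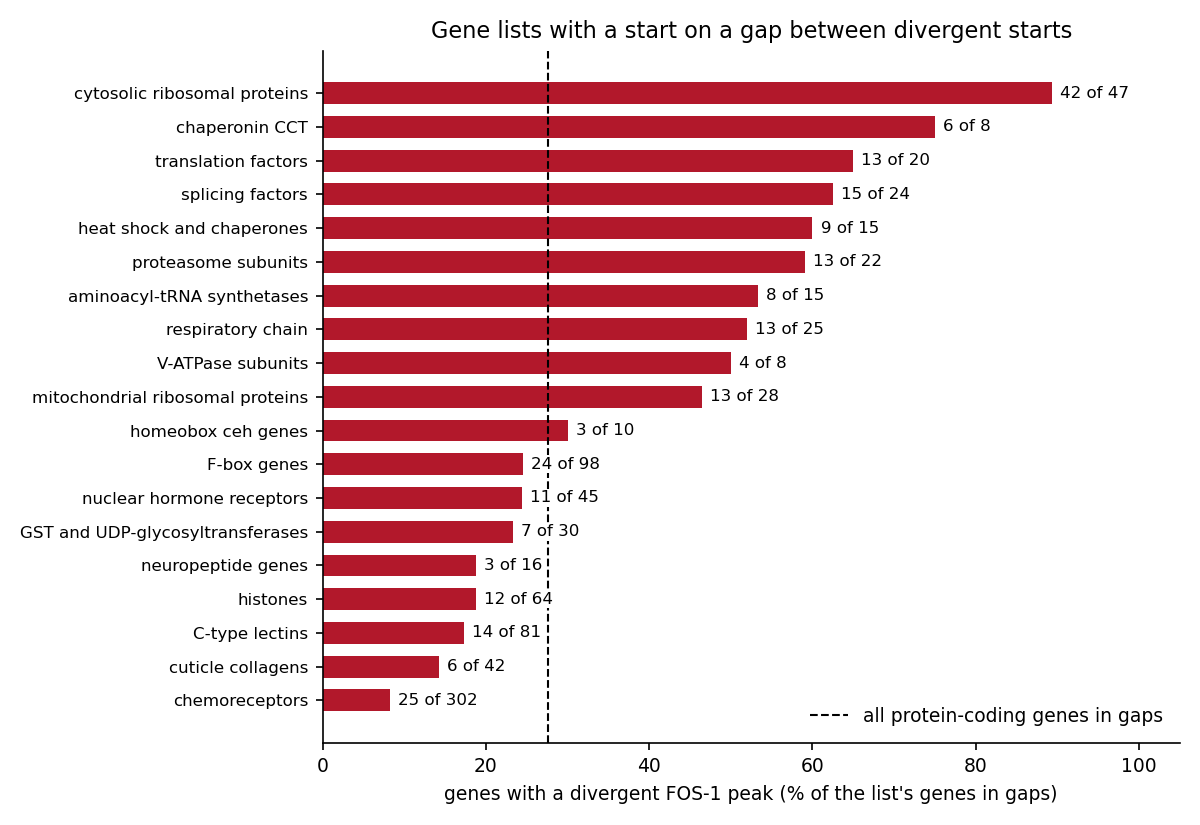
Share of each list's genes on gaps up to 2000 bp that had a divergent FOS-1 peak (horizontal axis, %), with the counts at the end of each bar, for the lists with 8 or more genes on gaps. The dashed line is the share over all protein-coding genes on gaps (27.6%); cytosolic ribosomal proteins stand at 89.4% and chemoreceptors at 8.28%.

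Both genes of a pair came from the same list for 23 of the 767 divergent peaks. Same-list pairs were not counted over all gaps, so there is no background and the 23 are only described. The strongest of the 23 lay between clec-62 and clec-63 (signal 148), followed by rps-10 and rpl-24.1 (125), rsp-2 and rsp-1 (113), the F-box genes fbxa-80 and fbxa-19 (101), and rpl-39 and rps-30 (92.6). Stress and core histone pairs were weaker than these, with 53.7 between hsp-16.2 and hsp-16.41, which encode small heat shock proteins, and 35.0 to 71.8 over 6 histone pairs. Low values were not particular to them. A further F-box pair had 42.7, a nuclear hormone receptor pair 36.4 and a cuticle collagen pair 35.5.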

How the data were processed

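Peak positions, summits and signal values were taken as deposited, on ce11, from the IDR list of the whole series, the pooled relaxed list and the relaxed list of each replicate, whose pooling and use of a control are per the file headers and manifests. The deposited −log10 q-value was at the same ceiling of 4.25 for all 7446 IDR peaks, so peaks were ranked by the authors' signal value. Which aligner and peak caller were used is not given in the sources used here. Read depth is unknown, and the control was not analysed here. The ce10 lists were not used, since the gene models are on ce11.

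Relaxed calls numbered 29339 for replicate 1, 28938 for replicate 2 and 28259 for the pool. Classes used 29314 protein-coding transcript starts of 19973 genes (Ensembl release 115). Divergent and 1-strand peaks were compared by two-sided Fisher's exact tests with Benjamini-Hochberg adjustment over 4 features or 7 patterns, and the share of summits with the share of bases by an exact binomial test that doubles the smaller tail. Tests were checked on simulated data. Named genes are those of the 12 strongest divergent peaks, up to 2 per list by signal, up to 5 same-list pairs, the strongest peak per pattern, fos-1 and jun-1, and exceptions are marked. The members, lists and patterns were chosen with earlier results of these data known. Alternatives changed the peak set, upstream window, starts, gene bodies, distances and pattern window. Calculations used Python 3.11.15, pandas 2.3.3 and scipy 1.17.1.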

Additional observations from a re-analysis of the deposited data

How the results depend on the processing

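Values are odds ratios of divergent against 1-strand peaks unless stated. Under every alternative run, the density ratio stayed between 2.12 and 3.40, the odds ratio of IDR against low-ranked calls between 1.89 and 2.45, and that for chromosome X between 0.192 and 0.349, each past its threshold. The odds ratio for X takes no account of bases, and X held 5.76% of divergent and 15.3% of 1-strand bases. The GATA and extended GATA sites kept their direction and call under every alternative that compared divergent with 1-strand peaks.

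The 3723 peaks of highest signal gave 1.12 for short RNA genes, 1.19 for CRE, 0.639 for GAGAGAG (adjusted p = 0.0865, Fisher's exact test) and a share of gaps with a summit of 17.4%. Summits within 250 bp of the nearest start gave 0.918 for the fifth of highest signal and 0.725 for GAGAGAG (adjusted p = 0.178, Fisher's exact test). A 500 bp window gave 0.851 for the fifth of highest signal, 0.962 for support by both replicates and 1.35 for CRE, and a 2000 bp window gave 0.998 for support by both replicates, 0.578 for short RNA genes (adjusted p = 0.0107, Fisher's exact test) and 1.13 for GACGCAGA. With 1 start per gene CRE was 1.14. Summits outside gene bodies gave 0.972, 0.989 and 1.12 for the fifth of highest signal, both replicates and CRE. Leaving out summits near short RNA genes gave 0.983 for the fifth of highest signal, and counting RNA genes within 1000 bp gave 1.03. Against divergent low-ranked calls in place of 1-strand peaks the odds ratios were 2.34 for AP-1, 1.23 for GATA, 1.91 for the extended site, 1.40 for GACGCAGA and 0.970 for GAGAGAG (adjusted p = 0.909, Fisher's exact test). The extended site and GACGCAGA came from a ranking that took in the divergent IDR peaks, so their values there are only described. On autosomes only, an alternative chosen after seeing the data, AP-1 was 0.569 and E-box 0.570 (adjusted p = 0.0464 each, Fisher's exact test). Apart from the extended site, no result named here as reversed passed its test in the report or the alternative, except GATA, which passed only in the report; the cause of these moves was not tested.

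With each replicate's strongest calls alone, the odds ratio ranged from 1.04 to 1.19 for CRE, from 0.554 to 0.777 for the E-box (adjusted p = 0.0280 without replicate 1, Fisher's exact test), from 0.951 to 1.12 for the fifth of highest signal, from 0.215 to 0.234 for X and from 0.350 to 0.383 for GATA. No paired analysis was possible because both replicates belong to 1 group.

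Without read counts no depth or interval within a peak can be given, the signal cannot be compared between lists, and the IDR list was made from both replicates pooled. Peaks share their replicates, so tests over peaks do not measure variation between animals. Annotated starts stand in for promoters, and no control without the transgene was analysed here.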
